A study of Homo sapiens with 4 samples.

Results

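CEMIP and CEMIP2 encode a pair of related proteins of hyaluronan turnover, and their RNA was followed in HUT78 cells with and without the compound CSH71. The genes were found as the probe sets whose platform annotation gives the symbol CEMIP or CEMIP2. That rule gave 2 probe sets, 1 for each gene, among 16098 probe sets with a single symbol and 2 genes among 14884. The pair was selected on the CSH71 contrast itself, with its fold changes known, so the values of that contrast are given for both genes as a description and with no test.

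HUT78 is an established line of human T cells from cutaneous lymphoma. The 2 CSH71 samples were treated at 250 nM for 30 h, and the 2 untreated samples received no compound per the labels. All 4 samples are total RNA of the same line, grown in medium with serum, each measured on its own Affymetrix whole-transcript array. The series describes its chemicals as aimed at the lipid-binding domain of the kinase p38γ. The deposited values are linear intensities without detection calls, so neither gene is called present or absent. The labels do not say whether replicates were separate cultures, and the errors given here reach no further than the spread between these samples. The standard errors and intervals come from limma, which draws the variance of each gene toward that of all genes. In total RNA of a culture, fewer cells that express a gene and less RNA in each cell cannot be told apart.

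Hyaluronan is a long glycosaminoglycan of the extracellular matrix, made at the plasma membrane by the HAS synthases and bound on lymphocytes and many other cells by the receptor CD44. CEMIP, also known as KIAA1199 or HYBID, is needed for the breakdown of hyaluronan by human skin fibroblasts and is best studied in fibroblasts and carcinoma cells. CEMIP2, also known as TMEM2, is a related protein anchored in the plasma membrane. It was described as a cell-surface hyaluronidase, and whether the human protein itself cleaves hyaluronan has been disputed. Hyaluronan, protein and enzyme activity were not measured here.

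The sequences around the start sites are shown because the data are RNA levels of 2 genes that differed in opposite directions. Both come from RefSeq (GRCh38.p14), run from 250 bases before to 50 bases after the annotated start, 5′ to 3′ on the strand of the gene, and both genes matched by symbol. That of CEMIP lies at chr15:80779120-80779419 on the plus strand and that of CEMIP2 at chr9:71768464-71768763 on the minus strand. Capitals mark matches, on either strand, to TATAAA (the TATA box), TTGCNNAA (a C/EBP-like motif) or TGACG (the core of the cAMP response element).
CEMIP: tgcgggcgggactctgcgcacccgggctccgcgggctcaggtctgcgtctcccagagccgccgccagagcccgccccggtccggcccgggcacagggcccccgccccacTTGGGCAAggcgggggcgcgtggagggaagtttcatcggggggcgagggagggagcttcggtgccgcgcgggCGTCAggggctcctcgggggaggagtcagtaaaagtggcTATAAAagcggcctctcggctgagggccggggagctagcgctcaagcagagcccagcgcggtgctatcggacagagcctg
CEMIP2: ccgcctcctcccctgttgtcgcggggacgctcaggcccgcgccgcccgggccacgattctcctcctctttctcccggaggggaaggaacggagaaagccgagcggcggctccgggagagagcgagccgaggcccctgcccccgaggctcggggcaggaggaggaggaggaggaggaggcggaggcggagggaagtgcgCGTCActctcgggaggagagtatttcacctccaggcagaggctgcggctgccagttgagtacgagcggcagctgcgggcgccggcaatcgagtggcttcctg

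The CEMIP window held TATAAA from position -30 to -25 relative to the start, where 11.5% of 35116 promoter windows of that length held it. The CEMIP2 window had no match to it. The core TGACG matched once in each, on the opposite strand, at -69 to -65 in CEMIP and at -52 to -48 in CEMIP2, and 24.6% of all windows held it. TTGCNNAA matched in CEMIP at -141 to -134 (10.5% of all windows) and not in CEMIP2. The AP-1 motif TGANTCA, held by 7.71% of windows, the full cAMP response element TGACGTCA, held by 1.85%, the NF-κB motif, held by 5.91%, and the serum response element, held by 1.29%, had no match in either window. The GC box GGGCGG matched at 3 places in CEMIP and 1 in CEMIP2 (45.0% of windows) and is not capitalised. Both windows were GC-rich, at 73.0% for CEMIP and 70.7% for CEMIP2 against a median of 58.7% over all windows. A match of letters is a description and shows no binding.

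CEMIP was lower and CEMIP2 higher in CSH71-treated cells than in untreated cells. CEMIP had intensities of 83.8 and 55.2 on CSH71 replicates 1 and 2, against 133 and 204 on untreated replicates 1 and 2. Both treated arrays thus lay below both untreated arrays. The mean was 69.5 ± 20.2 with CSH71 and 168 ± 49.98 untreated (SD, n = 2 each), which puts the treated mean at 41.2% of the untreated one. On the scale of log2(intensity + 16), which understates the change of dim genes, the fold change was -1.10 ± 0.26 (SE). That SE is drawn toward the spread of all genes, and the SD of CEMIP itself within groups was 0.37 on this scale.

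CEMIP2 had intensities of 756 and 617 on CSH71 replicates 1 and 2, against 236 and 292 on untreated replicates 1 and 2. Both treated arrays lay well above both untreated arrays. The mean was 686 ± 97.9 with CSH71 and 264 ± 39.6 untreated (SD, n = 2 each), a ratio of 2.60, and the log2 fold change was 1.32 ± 0.20 (SE). The fold changes of the 2 genes lay 2.43 apart on the log2 scale.

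**Figure D1:**
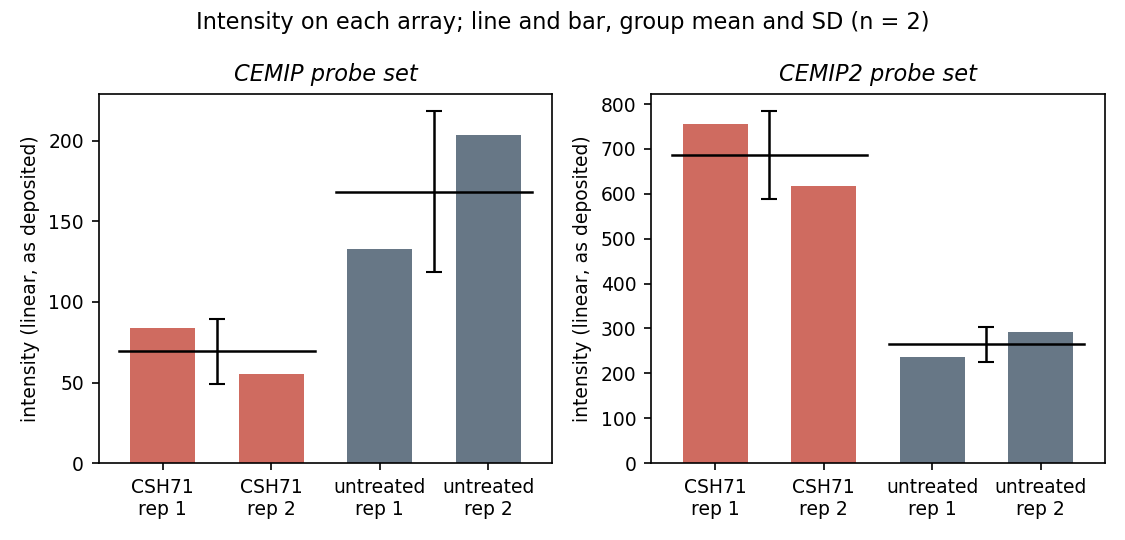
Linear intensity (y axis) of the CEMIP and CEMIP2 probe sets on each array (x axis), CSH71 arrays in red and untreated arrays in grey, with a line for each group mean and a bar for its SD (n = 2). CEMIP lies at 55.2 and 83.8 on the CSH71 arrays and at 133 and 204 on the untreated arrays, and CEMIP2 at 617 and 756 against 236 and 292.

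The replicates of CEMIP were further apart than those of CEMIP2. Its treated arrays differed by 0.49 and its untreated arrays by 0.56 on the log2 scale, and the nearest treated and untreated arrays by 0.58. For CEMIP2 the gap was 0.29 within each group, and the nearest treated and untreated arrays were 1.04 apart. Taking each CSH71 array against each untreated array, the log2 difference ran from -1.63 to -0.58 for CEMIP and from 1.04 to 1.61 for CEMIP2. In both genes CSH71 replicate 1 was above CSH71 replicate 2, and untreated replicate 2 above untreated replicate 1. The replicate gap of CEMIP was wider than that of 86.2% of all genes between the CSH71 arrays and of 90.5% between the untreated arrays.

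In the limma fit over all 14884 genes, 0 of the 2 genes passed an adjusted p under 0.05. Over all genes 7 did, 0.0470% of those tested (6 higher, 0.0403%, and 1 lower, 0.00672%). That count depended on the processing, with 32 higher and 11 lower after median centring and 0 called with quantile normalization. Both genes had an unadjusted p under 0.05, as did 5.11% of all genes. Groups that did not overlap were common: both CSH71 arrays lay above both untreated ones in 15.0% of genes and below them in 16.6%. A log2 fold change of at least 1 was reached by 0.202% of genes, and one of -1 or lower by 0.0336%. CEMIP2 was the 16th highest fold change, next to SIK1, a salt-inducible kinase, at 1.33, and 3 genes had a lower fold change than CEMIP. The pair was picked from this contrast, so these ranks and counts describe the pair and support nothing further.

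The brightness of the 2 probe sets differed, which does not order the RNA of the genes, since probe sets differ in their own response. CEMIP2 was brighter than 82.4% and 80.4% of genes on the CSH71 arrays and than 62.4% and 65.2% on the untreated arrays. CEMIP was brighter than 36.6% and 21.6% of genes on the CSH71 arrays and than 48.1% and 58.3% on the untreated arrays. Genes of tissues remote from lymphocytes give a measure of dim signal. The 7 of these that were measured, ALB (serum albumin) and GFAP (an astrocyte filament) among them, ran from 18.7 to 274 on CSH71 replicate 1, 26.9 to 200.2 on CSH71 replicate 2, 25.9 to 194 on untreated replicate 1 and 13.9 to 200.3 on untreated replicate 2. CEMIP lay inside that range on 3 arrays and just above it on untreated replicate 2. Of the 7 genes, 2 and 3 were brighter than CEMIP on CSH71 replicates 1 and 2. On untreated replicates 1 and 2 it was 2 and 0. The range is a loose measure. Its top was ALB on each array, and the median of all genes lay inside it (135 and 139 on the CSH71 arrays, 143 and 136 untreated). CEMIP2 exceeded every one of the 7 genes on each of the 4 arrays. The lower quartile of all genes was 55.2 and 62.2 on CSH71 replicates 1 and 2 and 59.5 and 54.4 on untreated replicates 1 and 2, so within each group CEMIP was dimmer on the array whose dim genes were brighter. How much of the CEMIP signal is background was not tested.

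The markers of the labelled cell type were checked beside these values. Of 13 T-cell markers 9 were measured, and their summed intensity was 7803 and 7176 on the CSH71 arrays, against 7439 and 7586 on the untreated arrays. CD5, LCK, ZAP70 and CD247, parts of T-cell receptor signalling, were bright on every array. CD2 (60.9 to 91.6) and CD28 (65.0 to 107) lay in the range given above and below the median of all genes on every array. Of 8 fibroblast markers, cells in which CEMIP is well studied, the 2 measured were DCN and LUM, matrix proteoglycans. Their sum was 71.9 and 91.4 on the CSH71 arrays, against 64.04 and 60.87 on the untreated arrays, with none at 0. That sum was higher on the CSH71 arrays, where CEMIP was lower and CEMIP2 higher, and its part in these results was not tested. DCN and LUM were dim, from 19.2 to 48.5, under the lower quartile of all genes on every array. In each of them both CSH71 arrays lay above both untreated arrays, as in 15.0% of all genes. The sums of 3 endothelial, 5 monocyte and 4 epithelial markers overlapped between the groups. Overlap does not mean dim signal: the epithelial markers EPCAM (1943 to 2169) and KRT18 (467 to 576) were bright on every array. KRT8 (90.9 to 119) and KRT19 (31.15 to 61.98) were dim. The source of the EPCAM and KRT18 signal was not tested.

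Other genes of hyaluronan metabolism were set beside the pair, to see how the rest of the pathway stood in the same cells. Of 41 genes in 5 lists 31 were measured. By limma 0 were called higher or lower at an adjusted p under 0.05, against 0.0470% of all genes. At an unadjusted p under 0.05 there was 1 of 31, HAPLN4, against 5.11% of all genes. Both CSH71 arrays lay above both untreated arrays in 6 of the 31 and below them in 6, against 15.0% and 16.6% of all genes. The median log2 fold change was -0.06 against -0.01 over all genes, with a range from -0.51 to 0.55. No member of the 5 lists reached a size of 1, where 0.202% of all genes reached 1 and 0.0336% reached -1. Calls and changes of that size were so rare over all genes that their absence among 31 says nothing about the pathway. A missed threshold does not show that a gene was unaltered, and intervals are therefore given for the genes named below.

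Among the synthases, HAS3 had intensities of 168 and 198 on the CSH71 arrays, against 252 and 186 on the untreated arrays, and the groups overlapped. Its log2 fold change was -0.23 ± 0.21 (SE), with a 95% interval of -0.72 to 0.26. HAS2 was dim, at 34.5 and 37.0 with CSH71 and 23.2 and 32.9 untreated, with a log2 fold change of 0.24 and an interval of -0.20 to 0.68. Both intervals leave out a size of 1 on this scale, which for a gene as dim as HAS2 bounds the RNA only loosely.

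The hyaluronidases of the other family were represented by HYAL2, which is tethered to the cell surface by a lipid anchor, and HYAL4, known mainly for acting on chondroitin sulfate. HYAL2 had 195 and 175 on the CSH71 arrays, against 163 and 173 on the untreated arrays, a log2 fold change of 0.13 with an interval of -0.28 to 0.53. HYAL4 had 128 and 85.0 with CSH71 and 106 and 69.7 untreated, and its log2 fold change of 0.24 had an interval of -0.37 to 0.84. Neither reached the size seen for CEMIP or CEMIP2, a comparison largely settled by picking the pair on this contrast. HAS1, HYAL1, HYAL3 and SPAM1 were not analysed here.

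CD44, the main hyaluronan receptor of T cells, had intensities of 1448 and 1541 on the CSH71 arrays, against 1450 and 1358 on the untreated arrays. The groups overlapped, and the log2 fold change of 0.09 ± 0.17 (SE) had a 95% interval of -0.31 to 0.49. HMMR, a hyaluronan-binding protein that also works on the mitotic spindle, had 1698 and 1853 with CSH71 and 1936 and 1995 untreated, a log2 fold change of -0.15 (interval -0.54 to 0.25). The lectin receptor LAYN and the innate immune receptors TLR2 and TLR4, which respond to many ligands, stayed under 115 on every array, with log2 fold changes of 0.23, -0.34 and 0.25. For all 8 receptors the range was -0.34 to 0.25.

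The enzymes that make the UDP sugars of hyaluronan were bright, from 468 to 1792. GFPT1, which starts the hexosamine pathway, had 1792 and 1690 on the CSH71 arrays, against 1438 and 1569 on the untreated arrays, a log2 fold change of 0.21 ± 0.17 (SE). UGDH, which makes UDP-glucuronic acid, had a log2 fold change of -0.06, and the range over the 5 enzymes was -0.13 to 0.21. Of 14 measured proteins that bind hyaluronan in matrix or plasma, 4 had a fold change above 0 and 10 one below it, with a median of -0.17. HAPLN4, a link protein of neural matrix, was highest at 0.55 ± 0.20 (SE; limma adjusted p = 0.929), and AMBP, the precursor of bikunin, was lowest at -0.51 ± 0.23 (adjusted p = 0.989). The intensities of this list ran from 16.4 to 294, and most of its genes belong to cartilage, brain or liver.

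**Figure D2:**
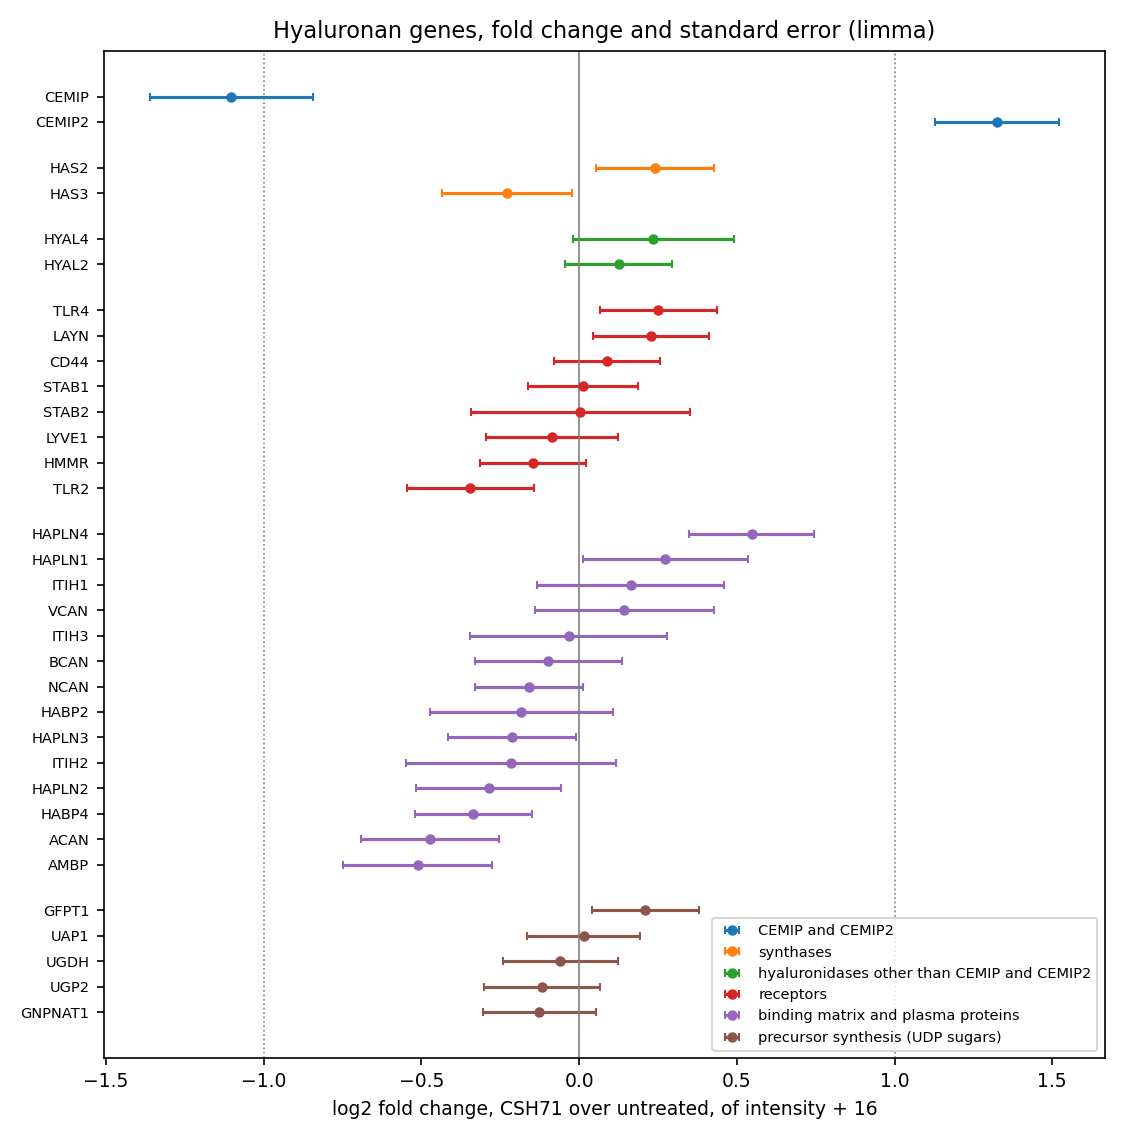
Log2 fold change of intensity + 16, CSH71 over untreated (x axis), with its standard error from limma, for CEMIP, CEMIP2 and the 31 other measured genes of hyaluronan metabolism (rows), coloured by role. CEMIP at -1.10 and CEMIP2 at 1.32 lie beyond the dotted lines at -1 and 1, and the other genes lie between -0.51 and 0.55. The pair was picked on this contrast, so its distance from the other genes is a description only.

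The genes closest to each of the pair over the 4 arrays were found by the Euclidean distance between log2 values centred on the mean of each gene, which takes in both the shape and the size of a profile. Over 4 arrays in 2 groups such a likeness mostly repeats the contrast, and it says nothing about shared control. The nearest to CEMIP2 was SIK1, at a distance of 0.19, with 726 and 718 on the CSH71 arrays, against 247 and 311 on the untreated arrays. Next came JOSD1, a deubiquitinase, at 0.20, and RGS16, a regulator of G-protein signalling, at 0.22. TNF, the cytokine that the design text singles out, stood at 0.26 with a log2 fold change of 1.08 ± 0.19 (SE), and the transcription factor STAT4 at 0.26 with 1.08 ± 0.19.

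The nearest to CEMIP was TLR5, the receptor for bacterial flagellin, at a distance of 0.23, with 191 and 133 on the CSH71 arrays, against 288 and 363 on the untreated arrays. It was followed by LRRC18 at 0.29, CREB3L3, a membrane-bound transcription factor known from liver, at 0.31, GCSH, a subunit of the glycine cleavage system, at 0.32, and the interferon-induced gene RSAD2 at 0.34. In these 5 genes too CSH71 replicate 2 was the lowest array and untreated replicate 2 the highest. Picking them by distance over these same arrays favours that order. Their log2 fold changes ran from -1.14 for CREB3L3 to -0.79 for GCSH.

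**Figure D3:**
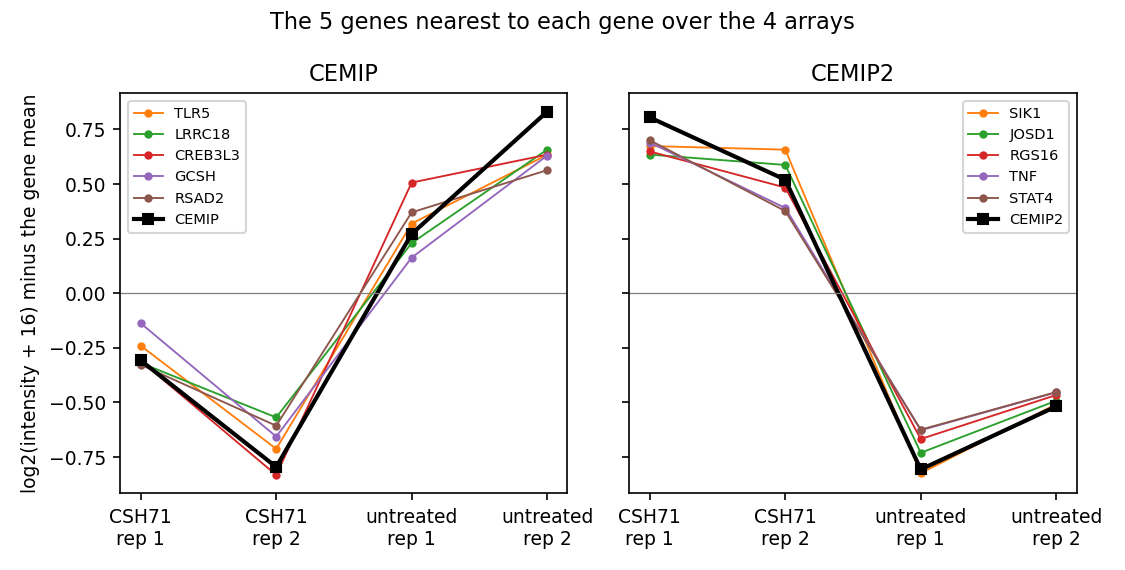
Log2(intensity + 16) minus the mean of each gene (y axis) on the 4 arrays (x axis) for CEMIP and CEMIP2 (black squares) and the 5 genes nearest to each (coloured circles). The profiles of CEMIP and its neighbours lie below 0 on both CSH71 arrays and above it on both untreated arrays, and those of CEMIP2 and its neighbours the other way round.

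Transcription factors of the AP-1 and NF-κB families have been reported at the CEMIP promoter in other cells, and their genes were measured on the same arrays. JUN and FOSL2 rose among the 13 measured, 0 were called lower, and the other 11 missed the threshold, where 0.0403% of all genes were called higher. An unadjusted p under 0.05 was reached by 5 of the 13, against 5.11% of all genes, and both CSH71 arrays lay above both untreated arrays in 7, against 15.0%. The list was chosen with earlier results of these data known, so its counts are a description and no test of the family. JUN had 857 and 800 on the CSH71 arrays, against 88.7 and 127 on the untreated arrays (log2 fold change 2.79 ± 0.21, limma adjusted p = 0.0224). FOSL2 had 338 and 295 with CSH71 and 66.3 and 66.6 untreated (2.01 ± 0.17, adjusted p = 0.0245). Neither passed when either untreated array was left out of the limma fit. Of those that missed the threshold, JUND had a log2 fold change of 0.82 ± 0.17 and ATF3, which pairs with AP-1 proteins, 0.90 ± 0.20. JUNB had 841 and 821 on the CSH71 arrays, against 609 and 677 on the untreated arrays (0.37 ± 0.17), and also missed it. The AP-1 genes FOS at -0.10, FOSB at -0.07 and FOSL1 at 0.05 were near 0 with overlapping groups. Of the 13 genes, 11 had a fold change above 0 and 2 one below it. REL, a subunit of NF-κB, had 4123 and 4289 on the CSH71 arrays, against 2643 and 2930 on the untreated arrays (0.59 ± 0.17), and NFKB2, another subunit, was at 0.20 with groups that did not overlap. The median over the list was 0.20 against -0.01 over all genes. RELA, a further subunit, was at 0.07 ± 0.20 and its partner NFKB1 at 0.01 ± 0.18, both with overlapping groups, and CEBPB was not analysed here. CEMIP was lower on the arrays where JUN and FOSL2 were higher, and a link between them was not tested.

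**Figure D4:**
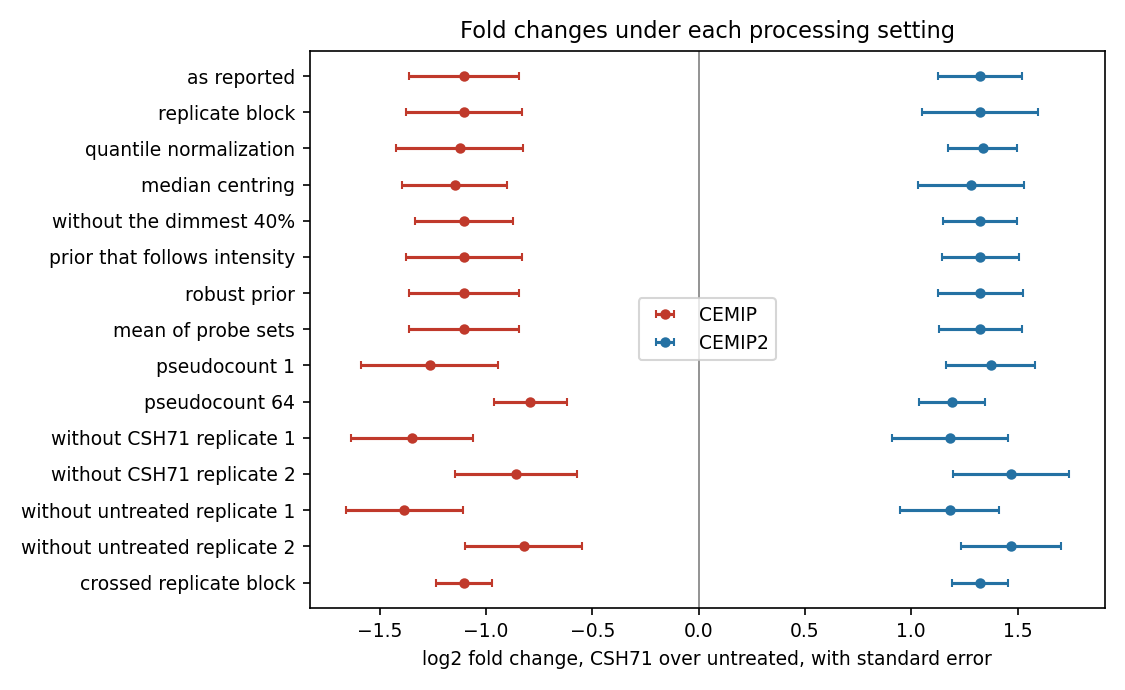
Log2 fold change of CEMIP (red) and CEMIP2 (blue), CSH71 over untreated (x axis), with its standard error, under the reported processing and 14 alternatives (rows). CEMIP stays between -1.38 and -0.79 and CEMIP2 between 1.18 and 1.47.

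Under the 14 alternatives in processing, among them each array left out in turn, the log2 fold change of CEMIP ran from -1.38 to -0.79 and that of CEMIP2 from 1.18 to 1.47.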

How the data were processed

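Total RNA of 2 CSH71-treated and 2 untreated HUT78 samples was measured on Affymetrix whole-transcript arrays. The authors deposited a linear intensity for each probe set, made with Affymetrix Expression Console per the submitters' processing notes. Its version and how it corrected, summarised and normalized the values were not given in the sources used here. Array medians ran from 71.5 to 81.1 and values of exactly 0 from 149 to 375 an array. The number of arrays limits the precision. Groups and replicates were read from the titles. The platform annotation gave 1 symbol to 16098 of 53617 probe sets, several to 0 and none to 37519; all entrez identifiers matched RefSeq (GRCh38.p14), used for names. The brightest probe set stood for a gene, which left 14884 genes. Values were taken as log2(intensity + 16) and compared with limma 3.58.1 (R 4.3.3), 2 group means per gene, with 2-sided p-values adjusted over all genes by the Benjamini-Hochberg method.

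The pair of genes, the lists, the motifs and the constant of 16 were chosen with earlier results of these data known. Genes were named by a written rule: both members, CD44, the synthases and hyaluronidases, up to 4 genes of each list by smallest p, the 5 nearest genes of each member, and 5 AP-1, NF-κB and C/EBP genes. Other list genes named here (LCK, HEXA and NFKB2, for example) were picked after their values were seen. The alternatives were other pseudocounts, quantile normalization, median centring, a filter on dim genes, other variance priors, the mean of probe sets, a replicate block and each array left out. The fit was tested on simulated data, 10 runs with 200 of 14884 genes changed. It called 19.3% of the 2-fold and 95.1% of the 4-fold changes, with 6.3 false calls a run on average. Most 2-fold changes were thus missed.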

Additional observations from a re-analysis of the deposited data

How the results depend on the processing

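The log2 fold changes of CEMIP and CEMIP2 kept their sign in all 14 alternatives and moved by less than the SD within groups, 0.37 for CEMIP and 0.20 for CEMIP2. For most alternatives this was fixed in advance. A replicate block, other variance priors, the filter on dim genes and the mean of probe sets cannot alter these fold changes. In non-overlapping groups of 2, leaving out an array cannot turn the sign or move the value past that SD. Only the other pseudocounts, quantile normalization and median centring could have done so. With each array left out, the log2 fold changes ran from -1.38 to -0.82 for CEMIP and from 1.18 to 1.47 for CEMIP2. With the replicate block they were -1.10 and 1.32. The calls were less stable. Of 7 genes called by limma as reported, the count went to 28 with the replicate block, 43 after median centring, 143 with a prior that follows intensity, 33 with a pseudocount of 64, 11 without the dimmest 40% of genes, and 0 with quantile normalization (with 927 under an unadjusted p of 0.05) or with a pseudocount of 1 (768). It was 29 without CSH71 replicate 1, 20 without CSH71 replicate 2, and 0 without untreated replicate 1 (794) or untreated replicate 2 (609). CEMIP was among the calls with the replicate block, median centring and the prior that follows intensity, where the prior degrees of freedom were infinite and the spread of the gene itself did not enter. Among the fits to every array, CEMIP2 was called in those 3, with a pseudocount of 64 and without the dimmest 40%. The pair was picked on this contrast, so its calls are a description and support nothing further. The cause of the shifts in the calls was not tested.

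The labels do not say that replicate numbers pair the samples, and deviations of same-numbered arrays correlated at -0.29. A crossed replicate block, chosen after seeing the data, gave 0 calls (1291 at an unadjusted p under 0.05). The count of called hyaluronan genes was 0 in every alternative. Of 899 values of the 66 other named genes under the alternatives, 35 turned sign, 0 of them called; JUN and FOSL2 missed the threshold after quantile normalization, with a pseudocount of 1, without either untreated replicate and with the crossed block. With 2 arrays a group and no background level, the dimmer signal of CEMIP is the less certain of the pair.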

Other observations

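Matrix-degrading enzymes other than the hyaluronidases and the lysosomal enzymes of glycosaminoglycan breakdown had 0 genes called by limma and 0 at an unadjusted p under 0.05, of 11 and 6 measured, where 7 and 760 of 14884 genes were. ADAM17, the protease that sheds TNF and other membrane proteins, had 531 and 579 on the CSH71 arrays, against 403 and 469 on the untreated arrays, a log2 fold change of 0.34 ± 0.18 (SE). ADAM10, a related sheddase, had 1239 and 1303 with CSH71 and 1106 and 1207 untreated, at 0.14 ± 0.17. In both the treated arrays lay above the untreated ones, which held for 2 of the 11 genes and for 15.0% of all genes. MMP1, a collagenase, was dim at 32.4 and 42.5 with CSH71 and 56.5 and 51.6 untreated, at -0.40 ± 0.18. CTSB and CTSL, lysosomal proteases, were at -0.11 and 0.07.

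HEXA, which removes terminal amino sugars from hyaluronan fragments in lysosomes, had 600.0 and 544 on the CSH71 arrays, against 539 and 629 on the untreated arrays, a log2 fold change of -0.03 ± 0.18 (SE). SGSH, an enzyme of heparan sulfate breakdown, was lowest of the lysosomal list at -0.24 ± 0.20, and HGSNAT, of the same pathway, highest at 0.14 ± 0.18. Of proteins that share the G8 domain with the pair, PKHD1L1 had 162 and 206 with CSH71 and 174 and 120 untreated, and PKHD1 had 26.9 and 75.9 with CSH71 and 48.0 and 36.0 untreated, so the groups overlapped for both. EGFR and PLXNA2, receptors reported to bind CEMIP, were dim, under 48 on every array, with log2 fold changes of 0.46 ± 0.21 and -0.28 ± 0.20.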
